A study of Mus musculus with 10 samples.

Results

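The 9 genes described here encode ion channels that microglia are known to use: the potassium channels Kcnk13, Kcnk6, Kcnn4, Kcna3 and Kcnj2, the proton channel Hvcn1, the cation channel Trpv2, the chloride intracellular channel protein Clic1 and the anion channel subunit Lrrc8a. They were taken by symbol from the deposited read counts, which list 24421 symbols, and all 9 passed the filter on low counts with 18727 genes in total. RNA was sequenced from a microglial fraction of the cortex of 9-month-old mice in 3 WT libraries, 4 APP/PS1 libraries and 3 APP/PS1+N-AS libraries, with 2 mice pooled in every library. APP/PS1 mice carry transgenes of human APP with the Swedish mutation and of mutant presenilin 1, a model of the amyloid deposition of Alzheimer's disease. The promoters of the transgenes are not given in the sources used here. The APP/PS1+N-AS mice carry the same transgenes and had received N-acetyl sphingosine (N-AS) subcutaneously at 30 mg/kg every day for 8 weeks from the age of 7 months. Vehicle is named for the APP/PS1 mice of the study, and the labels give no injection for the WT or the APP/PS1 libraries.

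Ion channels set the membrane potential, volume and internal acidity of microglia. Potassium channels keep the membrane negative and let potassium leave the cell, a known trigger of the NLRP3 inflammasome. The proton channel exports the acid and balances the charge that the phagocyte NADPH oxidase produces when it makes superoxide. Cation channels let calcium in, and anion channels release chloride and small organic molecules when a cell swells.

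The total count was 8805804 to 19432075 per library. Expression is given in CPM, counts divided by the library size and scaled to a common size by TMM, edgeR's correction for library composition, and a gene was called when its adjusted p-value was under 0.05 by edgeR (quasi-likelihood F test, Benjamini-Hochberg over all genes tested). The cells had been separated by a density gradient without a sort. The summed CPM of 14 microglial markers, among them P2ry12, Tmem119 and Cx3cr1, came to 775 to 1174 in the WT libraries and 2320 to 2992 in APP/PS1 libraries, and N-AS-treated libraries held 1503 to 1911. Markers of neurons (10 genes, summed CPM 3084 to 6181 over all libraries), astrocytes (8 genes, 2248 to 3942) and oligodendrocytes (10 genes, 1980 to 7156) were present in every library. The study's methods name only male mice, whereas Xist, which is a transcript of the silenced X in females, was counted 33 to 37 times in WT libraries and 5253 to 11188 times in APP/PS1 libraries. N-AS 1 to 3 held 7024, 8848 and 29. The summed count of the Y-linked genes Ddx3y, Uty, Kdm5d and Eif2s3y was 1492 to 3700 in WT libraries, 495, 690, 13 and 13 in APP/PS1 1 to 4, and 470, 863 and 2377 in N-AS 1 to 3. APP/PS1 1 and 2 and N-AS 1 and 2 thus held transcripts of both kinds, and the APP/PS1 libraries were not alike in them. A difference between WT and APP/PS1 and a difference in sex-linked transcripts therefore cannot be told apart. WT 3 and N-AS 3 held 36 and 9 reads of Ttr, a choroid plexus transcript, against 3136 to 14778 in the other libraries. In these bulk libraries, fewer cells of a type and less RNA per cell cannot be told apart.

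To compare the genes with each other, CPM was divided by the length of the exons. In WT, Lrrc8a (18.6 ± 5.15 CPM per kilobase, SD, n = 3), Kcnj2 (17.1 ± 5.25) and Clic1 (16.3 ± 5.34) were the most abundant, and their libraries overlapped. Kcnk6 (5.02 ± 1.79), Kcnk13 (3.45 ± 0.992), Trpv2 (3.30 ± 0.0819), Kcna3 (3.19 ± 1.25) and Hvcn1 (2.95 ± 0.183) followed, each overlapping with its neighbour in the order. Kcnn4 was lowest at 0.567 ± 0.347 CPM per kilobase and rested on 18 to 104 reads per library over all groups. In APP/PS1, Hvcn1 rose in the order to stand just above Kcnk6, at 8.34 ± 1.19 CPM per kilobase (SD, n = 4) against 7.13 ± 0.704, with overlap, and all its libraries lay above those of Kcna3, Trpv2 and Kcnk13. With N-AS it kept this place, at 6.01 ± 0.850 CPM per kilobase (SD, n = 3). Lrrc8a, Kcnj2 and Clic1 were on top and Kcnn4 at the bottom in each group.

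**Figure D1:**
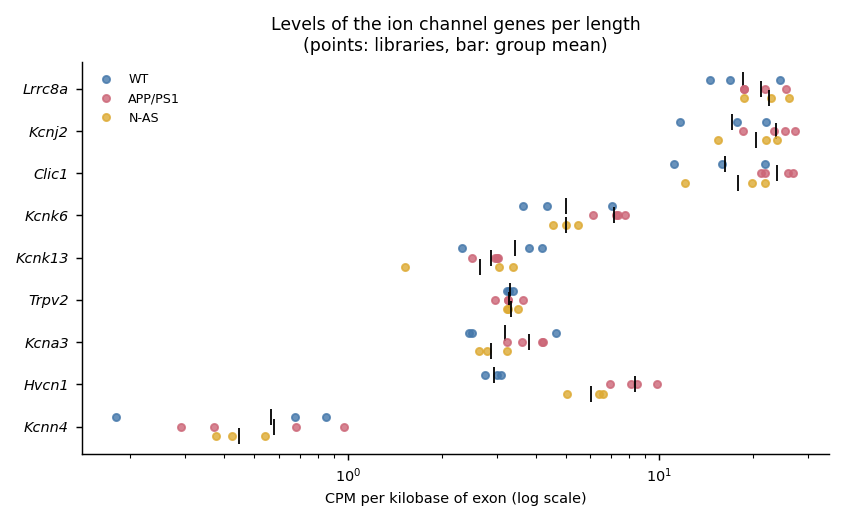
Levels of the 9 ion channel genes in CPM per kilobase of exon (log axis); points are libraries, coloured by group, and bars are group means. Hvcn1 moved from 2.95 CPM per kilobase in WT to 8.34 in APP/PS1 and 6.01 with N-AS, while Lrrc8a, Kcnj2 and Clic1 stayed on top and Kcnn4 at the bottom in each group.

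Among the 9 genes, 1 was called between APP/PS1 and WT, the proton channel gene Hvcn1, which was higher in APP/PS1. Over all genes tested, 3.47% were called, 2.67% being higher and 0.796% lower. At an unadjusted p under 0.05, 3 of the 9 were higher (8.3% of all genes) and 0 lower (8.9%). The median log2 fold change of the 9 genes was 0.24, against −0.074 for all genes tested. Between N-AS-treated APP/PS1 and APP/PS1, 0 of the 9 were called by edgeR, DESeq2 or limma, though DESeq2 gave no adjusted p for Kcnn4. In this comparison edgeR called 0% of all genes, with a lowest adjusted p of 0.405, and DESeq2 called 79 genes. At an unadjusted p under 0.05, edgeR found 2 of the 9 lower with N-AS (4.05% of all genes) and 0 higher (4.78%). The median there was −0.39, against −0.0089 for all genes. Hvcn1 was also the 1 gene of the 9 called between N-AS-treated APP/PS1 and WT, where 0.187% of all genes were called. The comparisons with APP/PS1 share the APP/PS1 libraries, and those with WT share the WT libraries.

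**Figure D2:**
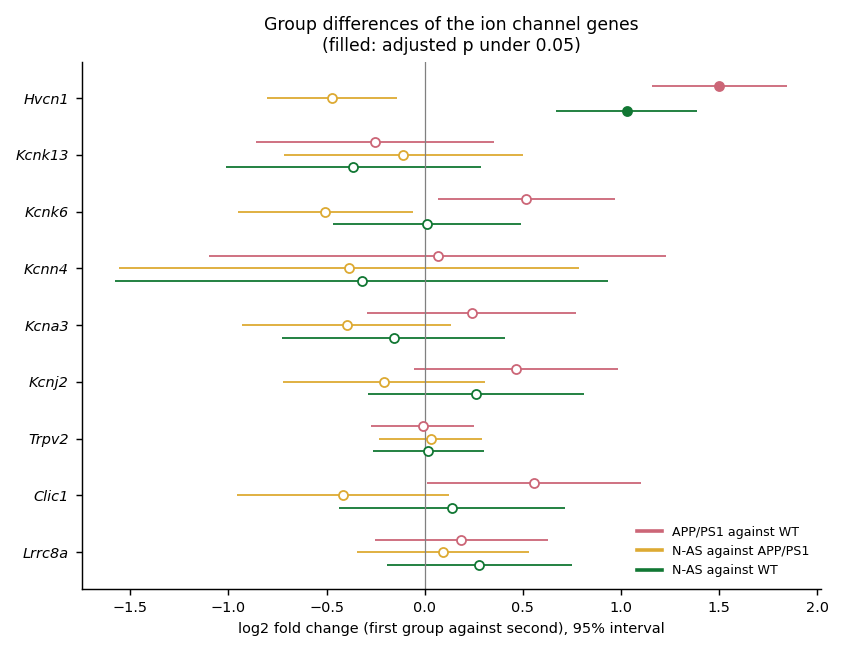
Log2 fold change of each ion channel gene in the 3 comparisons, with 95% intervals; filled points have an adjusted p under 0.05 in edgeR. Hvcn1 lies at 1.50 for APP/PS1 against WT and 1.03 for N-AS against WT, and the 3 intervals of Trpv2 are the narrowest.

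Hvcn1 (ENSMUSG00000064267.13; chr5:122206804-122242297, plus strand, GRCm38) encodes the voltage-gated proton channel of phagocytes. It was at 10.7, 9.78 and 11.0 CPM in WT 1, 2 and 3. In APP/PS1 1 to 4 it was at 24.8, 28.8, 30.2 and 35.0 CPM, and in N-AS 1 to 3 at 23.5, 22.8 and 18.0 CPM. All APP/PS1 libraries lay above all WT libraries, as in 8.15% of all genes, and the N-AS libraries lay between the 2 groups without overlapping either. APP/PS1 averaged 29.7 ± 4.23 CPM (SD, n = 4) where WT averaged 10.5 ± 0.651 (SD, n = 3), a 2.83-fold difference and a log2 fold change of 1.50 (standard error 0.16, 95% interval 1.16 to 1.85, adjusted p = 0.000764 in edgeR). By unadjusted p it ranked at place 30 of the 18727 genes tested. Within library numbers 1 to 6, which hold replicates 1 and 2 of each group, the difference in log2 CPM was 1.37. Within numbers 7 to 10, which hold 1 WT, 2 APP/PS1 and 1 N-AS library, it was 1.55.

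Treated libraries averaged 21.4 ± 3.03 CPM of Hvcn1 (SD, n = 3), and their log2 fold change against APP/PS1 was −0.47 (standard error 0.15, interval −0.80 to −0.14). All 3 libraries were lower than all 4 of APP/PS1, as in 6.46% of all genes, but the adjusted p was 0.497 in edgeR (0.00916 before adjustment). The difference in log2 CPM was −0.21 within numbers 1 to 6 and −0.85 within numbers 7 to 10. The latter rests on 1 treated library, N-AS 3, which differed from APP/PS1 3 and 4 in Xist, Y-linked and Ttr reads. These differences and the treatment cannot be told apart there. Against WT the treated libraries were all higher, as in 4.9% of all genes, by 2.04-fold, a log2 fold change of 1.03 (standard error 0.16, interval 0.67 to 1.39, adjusted p = 0.0404 in edgeR). This call was lost when WT 1, WT 2, WT 3, N-AS 1 or N-AS 2 was left out (adjusted p = 0.145, 0.245, 0.0513, 0.203 and 0.217), while the log2 fold change lay between 0.96 and 1.17 over all libraries left out in turn. N-AS 3, with 29 Xist reads, held 18.0 CPM of Hvcn1, and WT 3, with 33 Xist reads, held 11.0 CPM. This sets 1 library against 1, and the part of sex-linked transcripts in the level of Hvcn1 was not tested.

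Hvcn1 is also made by B cells and by monocytes and neutrophils. The summed CPM of 4 B cell markers ranged over 1.78 to 6.89 (WT), 2.31 to 4.92 (APP/PS1) and 1.40 to 2.04 (N-AS). These sums were small, and only 2 of the 4 genes passed the filter on low counts. The N-AS sums ended just below those of APP/PS1 (2.04 against 2.31), while WT overlapped with both. In mean log2 CPM of the 2 genes, N-AS differed from APP/PS1 by −0.53 (two-sided exact permutation test over libraries, p = 0.171). APP/PS1 differed from WT by −0.10 (exact p = 0.886). The summed CPM of 7 monocyte and neutrophil markers was 8.00 to 22.2, 13.9 to 100.8 and 12.1 to 25.3, with overlap between all groups. The part of these cells in the level of Hvcn1 was not tested. In the annotation GENCODE M21, 4450 bases of the span of Hvcn1, introns included, overlap with Tctn1 on the opposite strand, a gene of the transition zone of cilia. The exons of Hvcn1 come to 3563 bases, and the overlap of exons was not computed. Whether the deposited counting used the strand is not given in the sources used here. Without strand, any reads that the genes share cannot be told apart. Tctn1 was at 16.6 ± 2.17 CPM in WT (SD, n = 3) and 22.3 ± 2.11 in APP/PS1 (SD, n = 4), a log2 fold change of 0.43 (adjusted p = 0.182 in edgeR).

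**Figure D3:**
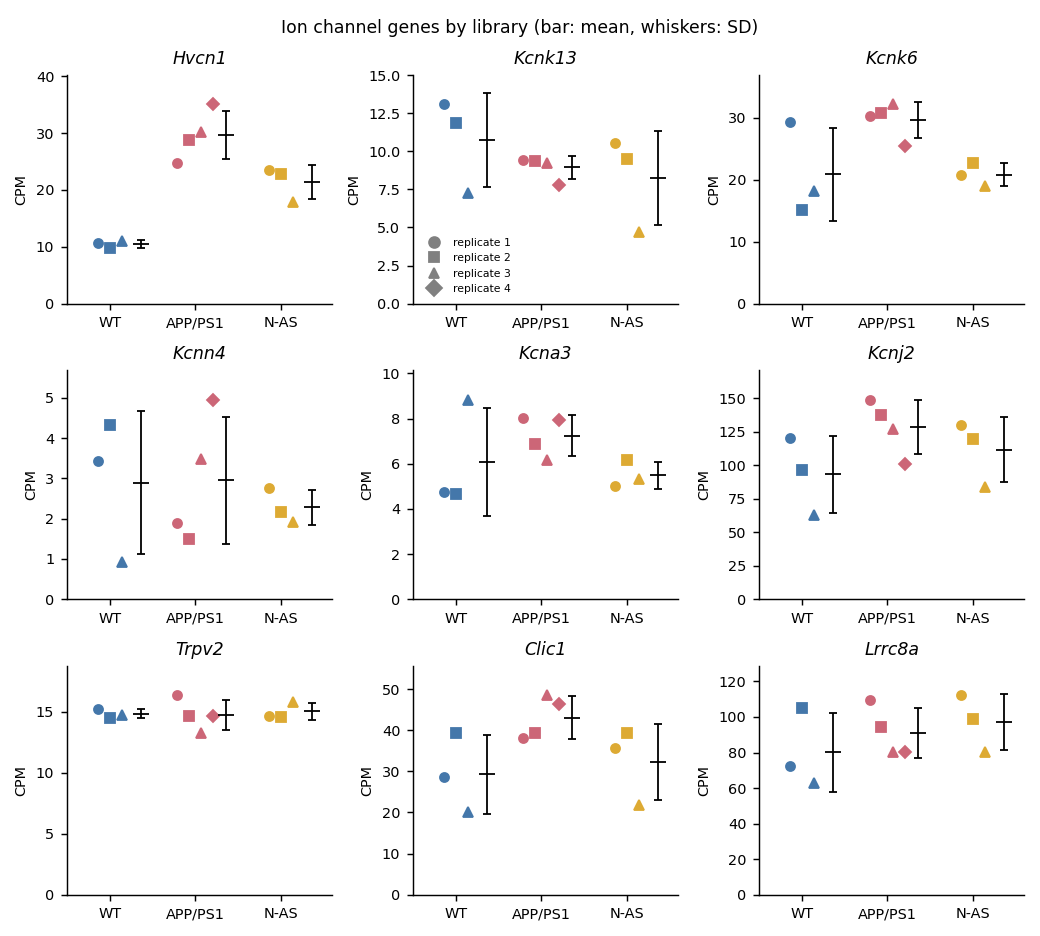
CPM of each ion channel gene by library, with points shaped by replicate number and the group mean with its SD beside them; axes start at 0. Hvcn1 is the gene in which the 3 groups separate, from 9.78 to 11.0 CPM in WT and from 24.8 to 35.0 in APP/PS1, and Trpv2 stays between 13.3 and 16.3 CPM in all 10 libraries.

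Among the potassium channels, Kcnk13 and Kcnk6 belong to the tandem pore domain family, whose members leak potassium at rest. Kcnk13 (ENSMUSG00000045404.16; chr12:99964499-100062682) encodes the channel that sets the resting potential of microglia. It was at 13.1, 11.9 and 7.23 CPM in WT 1 to 3 and at 9.41, 9.34, 9.22 and 7.81 CPM in APP/PS1 1 to 4. In N-AS 1 to 3 it was at 10.5, 9.49 and 4.73 CPM. The groups overlapped, and WT 3 and N-AS 3 were the lowest libraries of all 10. Its log2 fold change was −0.25 in APP/PS1 against WT (interval −0.86 to 0.35, adjusted p = 0.696 in edgeR) and −0.11 with N-AS (interval −0.72 to 0.50, adjusted p = 0.938 in edgeR). Without WT 3 and N-AS 3 these were −0.47 and 0.17, with adjusted p = 0.0954 and 0.632 in edgeR.

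Kcnk6 (ENSMUSG00000046410.10; chr7:29221926-29232515, minus strand) encodes a channel that carries the potassium efflux upstream of NLRP3 in macrophages. It was at 29.2, 15.2 and 18.1 CPM in WT, 30.2, 30.7, 32.1 and 25.4 CPM in APP/PS1, and 20.8, 22.7 and 18.9 CPM with N-AS. WT 1 lay among the APP/PS1 libraries, and the N-AS libraries were all below the APP/PS1 ones, as in 6.46% of all genes. The log2 fold change was 0.52 in APP/PS1 against WT (standard error 0.20, interval 0.067 to 0.97, adjusted p = 0.219 in edgeR). With WT 1 left out it was 0.83, with an adjusted p of 0.0286 in edgeR, so this library decided whether the gene was called. With N-AS it was −0.51 (standard error 0.20, interval −0.95 to −0.058, adjusted p = 0.531 in edgeR), and the differences within numbers 1 to 6 and 7 to 10 were −0.48 and −0.59. The latter rests on 1 treated library. N-AS-treated and WT libraries both averaged 20.8 CPM, and their log2 fold change of 0.011 had an interval of −0.47 to 0.49.

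Kcnj2 (ENSMUSG00000041695.2; chr11:111066164-111076821) encodes an inward rectifier that holds the membrane at negative potentials. It was at 120.0, 96.5 and 63.2 CPM in WT, 149, 138, 127 and 101 CPM in APP/PS1, and 130.3, 119.9 and 84.1 CPM with N-AS. The groups overlapped, and WT 3 and N-AS 3 were the lowest libraries. The log2 fold change was 0.47 in APP/PS1 against WT (interval −0.053 to 0.98, adjusted p = 0.351 in edgeR). With the library set (numbers 1 to 6 against 7 to 10) as a covariate it was 0.58 and was called, with an adjusted p of 0.0439 in edgeR. Without WT 3 and N-AS 3 it was 0.26, with an adjusted p of 0.423. N-AS against APP/PS1 gave −0.21 (interval −0.72 to 0.31).

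Kcna3 (ENSMUSG00000047959.4; chr3:107036169-107038070) encodes a voltage-gated channel of activated microglia and T cells on a single exon. It was at 4.75, 4.64 and 8.82 CPM in WT, 8.03, 6.86, 6.15 and 7.95 CPM in APP/PS1, and 5.01, 6.15 and 5.32 CPM with N-AS. WT 3 was the highest library of all, and APP/PS1 3 and N-AS 2 were level at 6.15 CPM. The log2 fold change was 0.24 in APP/PS1 against WT (interval −0.29 to 0.77, adjusted p = 0.676 in edgeR), and without WT 3 and N-AS 3 it was 0.64 with an adjusted p of 0.101. With N-AS it was −0.40 (interval −0.93 to 0.14, adjusted p = 0.663 in edgeR). The summed CPM of 7 T cell markers ranged over 55.7 to 112 (WT), 79.4 to 166 (APP/PS1) and 78.5 to 110.2 (N-AS). Over the 10 libraries, Kcna3 had a Pearson's r of 0.121 with the mean log2 CPM of the T cell markers. With that of the neuronal markers it was 0.690. With the group means removed these were −0.265 and 0.877. These values are a description, and the part of either cell type in the level of Kcna3 was not tested. All 1902 bases of Kcna3 lie within the span of Gm27008, an antisense transcript that was not analysed here.

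Kcnn4 (ENSMUSG00000054342.8; chr7:24370263-24386690) encodes a potassium channel opened by calcium. It was at 3.45, 4.33 and 0.916 CPM in WT, 1.90, 1.49, 3.48 and 4.95 CPM in APP/PS1, and 2.77, 2.17 and 1.92 CPM with N-AS. Its spread within WT and within APP/PS1 was larger than any difference of group means. Its log2 fold change of 0.065 in APP/PS1 against WT had an interval of −1.10 to 1.23, and the differences were −1.14 within numbers 1 to 6 and 2.03 within numbers 7 to 10. The latter rests on 1 WT library. The coefficient of variation over the 10 libraries was 47.3%, where counting 18 to 104 reads alone gives 17.8%, so the spread between libraries was larger than the counting error.

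Trpv2 (ENSMUSG00000018507.16; chr11:62574486-62600515) encodes a calcium-permeable cation channel with a part in phagocytosis by macrophages. It was at 15.2, 14.5 and 14.8 CPM in WT, 16.3, 14.6, 13.3 and 14.6 CPM in APP/PS1, and 14.6, 14.6 and 15.8 CPM with N-AS. All groups overlapped, and the 2 libraries low in Ttr lay among the others. The coefficient of variation over the 10 libraries was 5.56%, against a median of 23.3% over all genes tested, and 100 of 18727 genes varied as little or less. Counting 128 to 307 reads alone gives 6.89%. The log2 fold change was −0.011 in APP/PS1 against WT (interval −0.27 to 0.25), 0.030 with N-AS against APP/PS1 (−0.23 to 0.29) and 0.019 with N-AS against WT (−0.26 to 0.30).

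Clic1 (ENSMUSG00000007041.9; chr17:35049966-35058749) encodes a protein that moves between a soluble and a membrane form and conducts chloride in activated microglia. It was at 28.6, 39.3 and 20.1 CPM in WT, 38.1, 39.3, 48.4 and 46.5 CPM in APP/PS1, and 35.6, 39.3 and 21.8 CPM with N-AS. WT 2, APP/PS1 2 and N-AS 2 were all at 39.3 CPM, and WT 3 and N-AS 3 were the lowest. The log2 fold change was 0.56 in APP/PS1 against WT (standard error 0.25, interval 0.013 to 1.10, adjusted p = 0.278 in edgeR) and −0.42 with N-AS (interval −0.96 to 0.12, adjusted p = 0.652 in edgeR). Without WT 3 and N-AS 3 these were 0.34 and −0.19, with adjusted p = 0.276 and 0.644 in edgeR. Within numbers 1 to 6 the difference of APP/PS1 from WT was 0.20 in log2 CPM, and within numbers 7 to 10, with 1 WT library, it was 1.24.

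Lrrc8a (ENSMUSG00000007476.18; chr2:30237715-30263790) encodes the subunit that every volume-regulated anion channel needs. It was at 72.5, 105 and 62.6 CPM in WT, 109.8, 94.1, 80.4 and 80.2 CPM in APP/PS1, and 112, 98.7 and 80.5 CPM with N-AS. The groups overlapped throughout. The log2 fold change was 0.19 in APP/PS1 against WT (interval −0.26 to 0.63, adjusted p = 0.695 in edgeR) and 0.092 with N-AS (interval −0.35 to 0.53, adjusted p = 0.926 in edgeR). Gm28035, annotated on the same strand over 23224 bases of the span of this gene, introns included, was not analysed here, so reads shared with it are uncertain.

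WT 3 and N-AS 3, the libraries low in Ttr, were the lowest of their groups for 5 of the 9 genes, Kcnk13, Kcnn4, Kcnj2, Clic1 and Lrrc8a. Over all genes tested, 22.7% were lowest in both. The 6 choroid plexus markers had a summed CPM of 16.8 in WT 3 and 19.6 in N-AS 3, against 418 and 419 in WT 1 and 2, 710 to 1223 in APP/PS1, and 629 and 838 in the other N-AS libraries. In mean log2 CPM they were higher in APP/PS1 than in WT by 1.53 (two-sided exact permutation test over libraries, p = 0.0286), and the difference of N-AS from APP/PS1 was −1.44 (exact p = 0.0571). Over the 10 libraries, which share groups and depth, the mean log2 CPM of these markers had a Pearson's r of 0.910 with Clic1, 0.862 with Kcnj2 and 0.707 with Kcnk13, given as a description. With the group means removed these were 0.876, 0.857 and 0.964. WT 3 and N-AS 3 lay far below the other libraries in these markers, and removing group means keeps that contrast, so r can rest largely on them. Other marker lists also reached high values, such as the T cell markers with Kcnk6 (0.880, and 0.826 with the group means removed). The part of these markers in the levels and group differences of the channel genes was not tested. Hvcn1 was highest of WT in WT 3 and lowest of its group in N-AS 3.

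The microglial markers were higher in APP/PS1 than in WT by 1.37 in mean log2 CPM (two-sided exact permutation test over libraries, p = 0.0286, the smallest that 4 against 3 libraries allow). They were lower with N-AS than in APP/PS1 by 0.55 (exact p = 0.0286). Each channel gene was therefore also set against the mean log2 CPM of these 14 markers in its own library. On this scale Hvcn1 differed by 0.11 between APP/PS1 and WT and by 0.086 between N-AS and APP/PS1, and its groups overlapped. The 14 markers include Trem2, whose Pearson's r with Hvcn1 over the 10 libraries was 0.993, the highest of the genes searched. Mean CPM of Trem2 was lowest in WT and highest in APP/PS1, with N-AS between them, as for Hvcn1. The scale is thus not independent of this pattern, and markers without Trem2 were not tested. The other 8 genes were lower in APP/PS1 relative to the markers, by between 0.77 (Clic1) and 1.59 (Kcnk13). The groups did not overlap for 5 of them, Kcnk13, Trpv2, Lrrc8a, Kcna3 and Kcnk6. Over all genes tested, 78.3% were lower in this way without overlap, so the position of these 5 was that of most genes. With N-AS against APP/PS1, Trpv2 and Lrrc8a were higher relative to the markers without overlap (by 0.59 and 0.64), as were 51.4% of all genes. These results depend on the markers chosen. Relative to the neuronal markers, Hvcn1 (1.56) and Kcna3 (0.39) were higher in APP/PS1 than in WT without overlap. Relative to the oligodendrocyte markers, Hvcn1 (2.67), Clic1 (1.79), Kcnk6 (1.75), Kcnj2 (1.69), Lrrc8a (1.40) and Kcnk13 (0.97) were. On both scales the remaining channel genes overlapped, and the share of all genes was not computed.

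**Figure D4:**
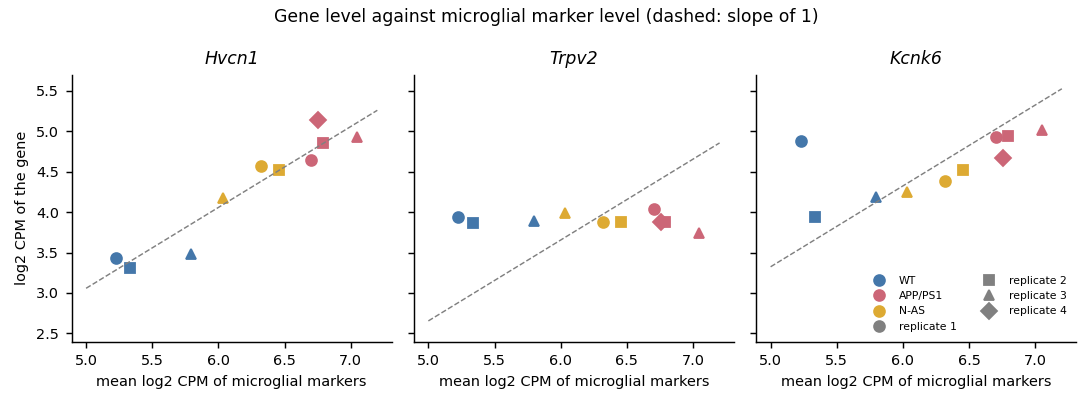
Log2 CPM of Hvcn1, Trpv2 and Kcnk6 against the mean log2 CPM of 14 microglial markers in each of the 10 libraries; colours are groups, shapes are replicate numbers and the dashed line has a slope of 1. Hvcn1 lies near the line across groups (Pearson's r of 0.954 with the marker mean, and 0.479 with the group means removed). The markers include Trem2, whose group means follow the order of those of Hvcn1. Trpv2 is level while the markers differ by 1.37 between WT and APP/PS1, and Kcnk6 of WT 1 stands above the line.

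The genes most like each channel gene were found by Pearson's r of log2 CPM over the 10 libraries, among 15545 genes with a mean log2 CPM of at least 1. These libraries share groups and depth, and r is given as a description. For Hvcn1 they were Trem2 (r = 0.993), a microglial receptor for lipids and one of the 14 markers, and Cyba (r = 0.992), a membrane subunit of the NADPH oxidase. With the group means removed these were 0.896 and 0.884. Cyba was at 4.40 CPM in WT, 19.8 in APP/PS1 and 13.4 with N-AS on average, the order of Hvcn1. The genes most like Kcnk6 were Afmid and Nuak2 (r = 0.934 and 0.928), those most like Kcnk13 were Col2a1 and Snhg5 (0.962 and 0.898), and those most like Kcnn4 were Mgst1 and Kif9 (0.941 and 0.923). Kcna3 was nearest to Grb2 and Cox5a (0.966 and 0.956), and Kcnj2 to Mlph and 4931406B18Rik (0.981 and 0.961). Clic1 was nearest to Hnrnpul1 and Zfp36l1 (0.975 and 0.967), and Lrrc8a to Thap3 (0.986). Trpv2, with little variation to share, reached 0.863 with Ftsj1 and 0.853 with Exoc1.

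Proteins that work with these channels were looked at as a list of 12 genes of potassium efflux, NLRP3 and the NADPH oxidase. In APP/PS1 against WT, 7 of the 12 were called higher and 0 lower by edgeR and limma (DESeq2 9 and 0). Over all genes, edgeR called 2.67% higher and 0.796% lower, and DESeq2 called 1345 of 18727 in either direction. The median log2 fold change of the 12 was 1.05, against −0.074 for all genes, and the microglial markers were higher by 1.37 in mean log2 CPM. Several of the 12 are genes of myeloid cells, and the part of the markers in this difference was not tested. Among the 7 were the oxidase subunits Cybb (log2 fold change 2.53), Cyba (2.17) and Ncf1 (1.58), the oxidase's GTPase Rac2 (1.05), the inflammasome sensor Nlrp3 (2.20) and the ATP-gated channel gene P2rx4 (0.95). The other 5 included P2rx7, through which ATP opens potassium efflux. With N-AS against APP/PS1, edgeR, DESeq2 and limma called 0 of the 12, and 8 were lower at an unadjusted p under 0.05 (4.05% of all genes). The median of the 12 was −0.49, where the microglial markers were lower by 0.55. By unadjusted p the leading genes there were Rac2 (−0.83), Cybb (−1.05) and Nlrp3 (−0.75), with adjusted p of 0.494, 0.494 and 0.509 in edgeR. Cyba was called by edgeR in N-AS against WT (log2 fold change 1.61, adjusted p = 0.0238), where DESeq2 called 5 of the 12 and limma 0. Of all 18727 genes, edgeR called 0.187% in that comparison, DESeq2 188 genes and limma 20.

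Of 100 further channel and channel subunit genes in 9 families, 92 were tested. In APP/PS1 against WT, edgeR and limma called 0 higher and 2 lower (DESeq2 2 and 4), where 2.67% of all genes were called higher and 0.796% lower by edgeR. At an unadjusted p under 0.05, 4 of the 92 were higher (8.3% of all genes) and 13 lower (8.9%), and the median log2 fold change was −0.29. The 2 called were Kcna6 and Kcna1, voltage-gated potassium channel genes of neurons related to Kcna3. Kcna6 averaged 24.7 ± 3.47 CPM in APP/PS1 (SD, n = 4) against 49.5 ± 6.42 in WT (SD, n = 3), a log2 fold change of −1.0 with a standard error of 0.14 (adjusted p = 0.00358 in edgeR). Kcna1 averaged 67.6 ± 12.5 and 116 ± 17.4 CPM, a log2 fold change of −0.78 with a standard error of 0.16 (adjusted p = 0.0278 in edgeR). The 10 neuronal markers differed by −0.080 in mean log2 CPM between these groups, and the 10 oligodendrocyte markers by −1.19, both with overlapping libraries, and their part in the lower levels was not tested.

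With N-AS against APP/PS1, 0 of the 92 were called by edgeR, DESeq2 or limma, and at an unadjusted p under 0.05, 12 were higher (4.78% of all genes) and 1 lower (4.05%), with a median of 0.093. Treated libraries averaged 35.6 ± 2.66 CPM of Kcna6 (log2 fold change 0.53) and 89.9 ± 4.56 CPM of Kcna1 (0.41). The adjusted p were 0.494 and 0.531 in edgeR. In the tandem pore domain family of Kcnk13 and Kcnk6, Kcnk4 (0.92) and Kcnk9 (1.03) were the leading genes with N-AS by unadjusted p. Among the inward rectifiers it was Kcnj1 (0.68), among the calcium-activated channels Kcnt1 (0.80), among the TRP channels Trpc5 (0.45), Trpc7 (0.52) and Trpv6 (0.61), and among the LRRC8 subunits Lrrc8c (0.30). All of these had an adjusted p of 0.494 to 0.540. The store-operated calcium entry genes Stim1 (0.071), Stim2 (−0.025) and Orai1 (0.17) had values near 0 there. Kcne1, at 0.142 ± 0.148 CPM with N-AS, and Clic6, a choroid plexus gene at 10.3 ± 6.54 CPM, were the lower ones among the leading genes of their families, and neither was called.

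**Figure D5:**
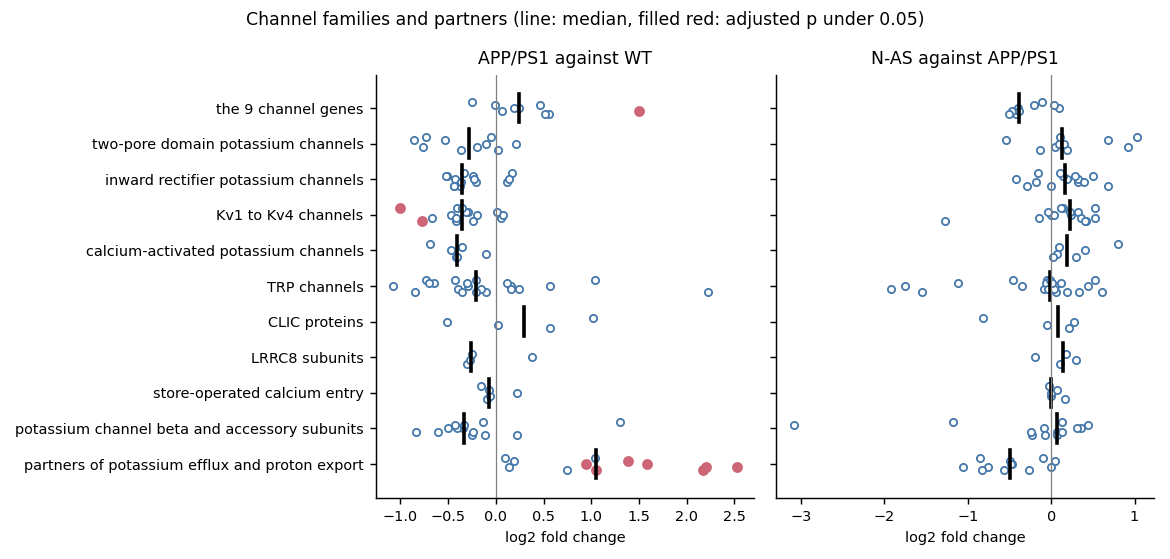
Log2 fold change of each tested gene, by family, in APP/PS1 against WT and in N-AS against APP/PS1; black lines are medians and filled red points have an adjusted p under 0.05 in edgeR. In APP/PS1 against WT the median of the 12 partner genes is 1.05 and that of the 9 channel genes 0.24, and Kcna6 and Kcna1 are the 2 called points on the lower side.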

How the data were processed

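Cortical microglial fractions were sequenced as paired reads of 100 bases from stranded, rRNA-depleted libraries. The authors aligned reads with TopHat, and the submitters' processing notes name mm10 and edgeR. The deposited values are raw read counts per gene symbol, without normalization. The annotation and versions are not given in the sources used here. Groups and replicate numbers came from the labels. The 103 lines that share 43 symbols were summed, and all 24421 symbols entered the filter.

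Genes were filtered with filterByExpr, scaled by TMM and tested in 1 model of 3 groups (glmQLFit and glmQLFTest, edgeR 4.0.16, R 4.3.3), with Benjamini-Hochberg adjustment over 18727 genes. The standard error is the log2 fold change divided by the root of its F statistic, and intervals are at the 95% level. Log2 CPM used a prior count of 2. Positions, overlaps and exon lengths came from GENCODE M21 on GRCm38, the assembly of mm10. Marker means were compared by two-sided exact permutation tests (numpy 2.4.6), and scipy 1.17.1 was used for the intervals. The fits were tested on simulated data. No molecular identifiers were used, so counting error leaves out that of amplification. Nothing says that the pools of 1 group came from separate preparations, and p-values measure the spread between libraries.

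The 9 genes, the lists and the markers were chosen with earlier results of these data known. The genes named beyond the 9 follow a rule: list genes called against WT in either comparison, up to 3 per list by lowest unadjusted p with N-AS against APP/PS1, and the 2 genes with the highest r for each channel gene. Tctn1, P2rx7 and overlapping transcripts were named afterwards. Of the genes that this rule names, 2 are not reported here.

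Same-numbered libraries of N-AS and APP/PS1 had r of 0.278, 0.142 and 0.309 after group means were removed. Libraries of different numbers were not compared in this way, so these values cannot show whether the numbers mark pairs. The main model used no pairing. A replicate block called 0 of the 9 genes between N-AS and APP/PS1, as without it. Other settings were the replicate block, library set as covariate, total counts only, DESeq2 1.42.0, quantile normalization with limma 3.58.1 (voom), a filter of 1 read or of at least 10 counts in all libraries, fits of only the groups compared, an unadjusted threshold and each library left out. Library numbers 1 to 6 only, and leaving out both libraries low in Ttr, were added after seeing the data.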

Additional observations from a re-analysis of the deposited data

Results flagged for a closer look

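Among the 4 APP/PS1 libraries, Kcnk13 was at 7.81 CPM in APP/PS1 4 and at 9.22 to 9.41 CPM in the others. The gap to the nearest library was 0.885 of the group's range, above Dixon's 95% critical value for 4 libraries. The other 8 channel genes had no such library in APP/PS1, and about 5% of groups pass this value by chance. WT and N-AS, with 3 libraries each, were not looked at in this way.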

How the results depend on the processing

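In APP/PS1 against WT, Hvcn1 was called under all 17 alternatives (log2 fold change 1.36 to 1.58, adjusted p 2.26e-14 to 0.00916). The count of channel genes called there was 1, and it was 3 at an unadjusted p under 0.05, 2 with library set as covariate (Kcnj2 added) and 1 to 2 over the libraries left out in turn (Kcnk6 added without WT 1). For N-AS against APP/PS1 the count was 0 under each alternative and 0 to 0 over the libraries left out, except 2 at an unadjusted p under 0.05. For N-AS against WT the count was 1, and it was 0 with total counts only, 0 with limma voom and quantile normalization, 0 with the replicate block, 0 in a fit of only those 2 groups and 0 to 1 over the libraries left out. Hvcn1 kept a log2 fold change of 0.96 to 1.20 under all 16 alternatives and was called under 7, with adjusted p from 4.28e-05 to 0.255. Same-numbered libraries had r of −0.485, 0.441 and −0.0096 between APP/PS1 and WT, and −0.136, 0.348 and 0.240 between N-AS and WT. Whether the numbers mark pairs is not known there either. With the replicate block Hvcn1 was 1.41 (adjusted p = 0.00916 in edgeR) for APP/PS1 and 1.03 (adjusted p = 0.107 in edgeR) for N-AS, and the block changed no other call. The causes of these changes were not tested.

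Signs turned for log2 fold changes that were not called. In APP/PS1 against WT, Kcnn4 was −0.20 with the replicate block, −1.24 with library numbers 1 to 6 only, −0.38 without both libraries low in Ttr and −0.38 to 0.54 over the libraries left out. Trpv2 was 0.0085 with total counts only, 0.0052 with no filter beyond 1 read, 0.027 with numbers 1 to 6 and −0.064 to 0.047 over the libraries left out. In N-AS against APP/PS1, numbers 1 to 6 gave Kcnk13 0.087, Kcnn4 0.53 and Trpv2 −0.090, and leaving out both libraries low in Ttr gave Kcnk13 0.17 and Trpv2 −0.00095. Over the libraries left out there, Kcnk13 was −0.32 to 0.17, Trpv2 −0.019 to 0.085 and Lrrc8a −0.021 to 0.22. In N-AS against WT, Kcnk6 was −0.012 with at least 10 counts in every library, −0.0017 in the fit of 2 groups, −0.053 with numbers 1 to 6 and −0.17 to 0.32 over the libraries left out. Kcnn4 was 0.19 with limma and −0.76 to 0.16. Kcna3 was 0.21 with numbers 1 to 6, 0.27 without both libraries low in Ttr and −0.32 to 0.23. Trpv2 was −0.0029 with limma, −0.00087 with at least 10 counts, −0.063 with numbers 1 to 6 and −0.0044 without both libraries low in Ttr, and Clic1 was −0.072 to 0.42 over the libraries left out. Over all genes, the counts called in APP/PS1 against WT ranged from 299 to 1345, in N-AS against APP/PS1 from 0 to 79 and in N-AS against WT from 1 to 437. Kcnn4 and Kcna3 had 18 to 104 and 40 to 183 reads per library, and counting gives 17.8% and 10.9% of variation, against 47.3% and 23.5% over the 10 libraries.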
